A study of Homo sapiens with 18 samples.

Results

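The genes described here are 10 long noncoding RNA genes: the snoRNA host genes GAS5, SNHG1, SNHG3, SNHG5, SNHG7, SNHG8, SNHG12 and EPB41L4A-AS1, and the nuclear RNAs MALAT1 and NEAT1. The choice is a list of names and sets no limit on a measured value, though it was made with earlier results of these data known, and the probes were found through the RefSeq accession of each probe. Of the 10 genes, 9 had a probe listed under their accessions, with 10 probes of 42327 in all, and these 10 probes lay well above background on all 18 arrays. No probe was listed under an accession of NEAT1, so it is not analysed here; probes that the array names only by coordinates of another genome build were not mapped to genes. The samples were EpCAM+ cells of the hepatocellular carcinoma (HCC) lines Huh1 and Huh7. EpCAM is a surface protein that the study used to select tumor-initiating cells. The 6 groups were Huh1 control, Huh1 with disulfiram (DSF, 0.1 µM), Huh1 with 5-fluorouracil (5-FU, 1 µM) and the same 3 treatments of Huh7, each for 48 hours and each with 3 arrays. DSF is an aldehyde dehydrogenase inhibitor that binds copper, and 5-FU is a pyrimidine analog that enters RNA and DNA. Copper chloride is named together with DSF in the methods, and the treatment of the control cells is not given, so DSF and copper cannot be told apart. Each line is a single established line kept in culture, and the methods give the triplicates as independent experiments.

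snoRNA host genes are transcribed by RNA polymerase II and carry small nucleolar RNAs (snoRNAs) in their introns. Splicing frees the introns, which are trimmed to snoRNAs that guide modification of ribosomal RNA: box C/D snoRNAs guide 2′-O-methylation and box H/ACA snoRNAs guide pseudouridylation. The spliced exons hold short reading frames, and for several hosts, GAS5 among them, they are degraded during translation by nonsense-mediated decay, so that the spliced RNA accumulates when translation stops. Many hosts start with a C followed by a run of pyrimidines, as ribosomal protein genes do. MALAT1 is a nuclear RNA of the splicing speckles, and NEAT1 is the scaffold of paraspeckles; neither hosts a snoRNA.

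In RefSeq, GAS5 holds 11 snoRNAs, 10 of them of the C/D kind. SNHG1 holds 9, of which 8 are C/D. SNHG12 holds 4, with 3 of the H/ACA kind. SNHG3 holds the H/ACA pair SNORA73A and SNORA73B, SNHG5 the C/D pair SNORD50A and SNORD50B, and SNHG7 the H/ACA pair SNORA17A and SNORA17B. SNHG8 and EPB41L4A-AS1 hold 1 H/ACA snoRNA each, SNORA24 and SNORA13. The start regions of the 8 hosts are shown because the class is known for its start sites. Each stretch runs 5′ to 3′ on the gene's strand, with 25 bases before the annotated start in lower case and 25 bases from the start in capitals (RefSeq, build GRCh38.p14).
GAS5: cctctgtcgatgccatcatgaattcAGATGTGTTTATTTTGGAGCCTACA
SNHG1: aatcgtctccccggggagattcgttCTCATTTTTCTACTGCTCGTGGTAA
SNHG3: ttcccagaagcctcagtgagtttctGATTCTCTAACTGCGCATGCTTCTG
SNHG5: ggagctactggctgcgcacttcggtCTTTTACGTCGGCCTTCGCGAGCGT
SNHG7: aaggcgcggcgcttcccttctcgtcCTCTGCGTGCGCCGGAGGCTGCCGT
SNHG8: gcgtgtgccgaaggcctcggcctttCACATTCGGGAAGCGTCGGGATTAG
SNHG12: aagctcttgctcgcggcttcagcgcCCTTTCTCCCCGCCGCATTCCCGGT
EPB41L4A-AS1: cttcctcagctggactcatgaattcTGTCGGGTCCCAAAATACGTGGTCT

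These stretches lie at chr1:173869021-173869070 (minus strand, GAS5), chr11:62855861-62855910 (minus, SNHG1), chr1:28505918-28505967 (plus, SNHG3), chr6:85678709-85678758 (minus, SNHG5), chr9:136728160-136728209 (minus, SNHG7), chr4:118278737-118278786 (plus, SNHG8), chr1:28581849-28581898 (minus, SNHG12) and chr5:112160501-112160550 (plus, EPB41L4A-AS1). On the transcribed strand, SNHG12 starts with 11 pyrimidines in a row, SNHG5 with 5, SNHG7 with 4 and SNHG1 with 3. A C followed by at least 4 pyrimidines stood at the start of 2 of the 8 hosts, SNHG5 and SNHG12. The same start was found in 1429 of all 35116 promoters (4.07%), in 5 of 15 other noncoding snoRNA hosts (33.3%) and in 10 of 25 protein-coding snoRNA hosts (40%). These shares read the annotated start only, and a start a few bases away would give another count.

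Values are log2 probe signals with the 75th percentile of each array set to 0, so that a level of 5.00 lies 5.00 log2 units above that percentile. Between 59.8% and 71.0% of probes per array lay well above background, and no spot was saturated. All 29894 probes above background on every array of at least 1 group were tested in 1 limma fit, and a change was called at a Benjamini-Hochberg adjusted p under 0.05. Of the 7 liver and HCC markers checked, all 7, EPCAM and ALB among them, lay well above background on the 18 arrays. Among the markers of other cell types, PTPRC and PECAM1 also did so, at levels below the 75th percentile on every array (-5.02 to -0.90), while COL1A1 did on 11 arrays, CD3E on 6, and LYZ had no named probe. The liver marker HNF4A also lay below that percentile on every array (-3.05 to -1.95), so the level does not separate the 2 marker lists. An exact permutation test of 3 arrays against 3 has a smallest p of 0.1, and the calls use limma's spread pooled over the 6 groups. After DSF, 6 of the 7 liver markers were called lower and 0 higher in Huh1, and 5 lower and 1 higher in Huh7, beside 20.3% and 19.4% of all tested probes called lower. GPC3 changed by -1.37 and -0.91, APOA1 by -2.03 and -0.82 and KRT18 by -0.09 and 0.51, and their part in the changes below was not tested; in such pooled RNA, fewer cells of a kind and less RNA per cell cannot be told apart. Scaling on 6 spike-in probes in place of the 75th percentile raised the median change of all tested probes after 5-FU to 0.79 in Huh1 and 0.94 in Huh7, from -0.03 and -0.05. Changes after 5-FU are therefore relative to the bulk of the array, and spike-in values are given beside the 5-FU changes that turn. The mean log2 spike-in signal was 14.16, 14.20 and 14.10 on the Huh7 control arrays. On the Huh7 DSF arrays it was 14.07, 14.58 and 14.60, with 75th percentiles of 10.11, 10.28 and 10.29. The last 2 of these arrays lay on a slide of their own that was scanned apart. For DSF in Huh7, effects of spike-in scaling and of that slide therefore cannot be told apart.

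DSF raised the snoRNA hosts EPB41L4A-AS1 and SNHG12 in both lines, and in Huh1 also SNHG1, MALAT1, SNHG7 and GAS5. SNHG7 was called in Huh7 too, but 3 other processing settings lost that call. No gene of the 9 was called lower after DSF in either line, except GAS5 in Huh7 under quantile normalization (-0.18, adjusted p = 0.0258). After 5-FU, GAS5, SNHG5, SNHG3, SNHG8 and EPB41L4A-AS1 fell in Huh7 relative to the array, while in Huh1 SNHG1, SNHG7 and MALAT1 rose. EPB41L4A-AS1 was the only one of the 9 called higher after DSF and lower after 5-FU in both lines, again relative to the array. Relative to the array, the response to 5-FU differed between the lines for 8 of the 9 genes, all lower in Huh7. Of all tested probes, 17.8% were called lower in this difference and 18.8% higher. With spike-in scaling the count fell to 3 genes, and with no filter on dim probes to 6.

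After DSF in Huh1, 6 of the 9 genes were called higher and 0 lower, beside 23.9% of all tested probes called higher and 20.3% called lower. In Huh7, 3 were called higher and 0 lower, beside 27.3% and 19.4% of all probes. The median change of the 9 genes was 0.50 in Huh1 and 0.07 in Huh7, against 0.00 and 0.08 over all tested probes. The DSF and control arrays did not overlap for 7 of the 9 genes in Huh1 and for 4 in Huh7, beside 59.1% and 60.5% of all tested probes. The count called in Huh1 was 6 under all 13 other processing settings, all higher. In Huh7 it ran from 2 to 4, with 3 higher and 1 lower under quantile normalization and the others all higher. With spike-in scaling the Huh7 median turned to -0.11, beside -0.09 over all tested probes.

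EPB41L4A-AS1, the host of SNORA13, had levels of 4.40, 4.52 and 4.52 in Huh1 control and of 5.40, 5.33 and 5.36 after DSF. In Huh7 its levels were 3.78, 3.80 and 3.81 in control and 4.67, 4.48 and 4.47 after DSF. Every DSF array lay above every control array of its line. The log2 change was 0.88 (SE 0.10, adjusted p = 6.29e-06, 1.84-fold) in Huh1 and 0.74 (SE 0.10, adjusted p = 3.25e-05, 1.67-fold) in Huh7. The changes in the 2 lines differed by -0.14 (95% interval -0.44 to 0.16, adjusted p = 0.444), which did not pass the threshold.

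SNHG12, the host of SNORA44, SNORA61, SNORA16A and SNORD99, rose by nearly the same amount. Its levels were 3.61, 3.35 and 3.58 in Huh1 control against 4.44, 4.39 and 4.36 after DSF. In Huh7 they were 3.73, 3.72 and 3.82 in control against 4.67, 4.54 and 4.53 after DSF. The groups did not overlap in either line, and the 6 DSF arrays were the highest of the 18. The log2 change was 0.88 (SE 0.14, adjusted p = 0.000162) in Huh1 and 0.82 (SE 0.14, adjusted p = 0.000302) in Huh7, with a difference between the lines of -0.06 (95% interval -0.49 to 0.38). SNHG12 is also the host whose printed start holds the run of 11 pyrimidines.

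SNHG7 carries SNORA17A and SNORA17B and has 2 probes. On the brighter probe it rose by 0.50 (SE 0.11, adjusted p = 0.0015) in Huh1 and by 0.39 (SE 0.11, adjusted p = 0.00897) in Huh7. On the dimmer probe the changes were 0.47 (adjusted p = 0.0666) and 0.58 (adjusted p = 0.0255). The Huh7 call on the brighter probe was lost without the slide that held 2 of the 3 Huh7 DSF arrays and no others, and that was scanned apart from the rest (0.37, adjusted p = 0.116), with slide as a block (0.37, adjusted p = 0.112) and with spike-in scaling (0.21, adjusted p = 0.37). The remaining DSF array lay on the slide of the Huh7 controls.

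SNHG1, with its 8 C/D snoRNAs, showed the largest rise of the 9 genes after DSF in Huh1. Its levels were 4.36, 3.97 and 4.17 in control and 5.44, 5.42 and 5.52 after DSF. The log2 change was 1.29 (SE 0.16, adjusted p = 1.72e-05, 2.44-fold). In Huh7 the control levels of 5.20, 5.18 and 5.18 already lay near those of treated Huh1, and the DSF levels were 5.65, 5.52 and 5.52. The groups did not overlap, but the change of 0.37 (95% interval 0.02 to 0.72, adjusted p = 0.0707) missed the threshold. The effect in Huh7 was smaller than in Huh1 by 0.92 (95% interval -1.41 to -0.42, adjusted p = 0.00553), a call that was lost with slide as a block (-0.80, adjusted p = 0.0722).

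MALAT1 rose in Huh1 with DSF. Its control levels of -0.30, -0.71 and -0.18 lay below the 75th percentile of the arrays, and the DSF levels of 0.52, 0.67 and 0.30 lay above it. The change was 0.89 (SE 0.16, adjusted p = 0.000432, 1.86-fold). In Huh7 the control levels were 0.19, 0.11 and -0.06, and the DSF levels of -0.13, 0.36 and 0.22 overlapped them, with a change of 0.07 (95% interval -0.29 to 0.42). The effect differed between the lines by -0.83 (SE 0.23, adjusted p = 0.0108).

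GAS5, whose snoRNAs are mostly of the C/D kind, had levels of 6.55, 6.55 and 6.59 in Huh1 control and of 6.94, 6.88 and 7.02 after DSF. The rise was 0.38 (SE 0.06, adjusted p = 0.000105, 1.30-fold). In Huh7 the levels were 7.18, 7.13 and 7.14 in control and 7.08, 7.17 and 7.13 after DSF, a change of -0.02 (95% interval -0.15 to 0.10). The effect differed between the lines by -0.41 (SE 0.08, adjusted p = 0.00144), which fell short of the threshold under median scaling (-0.25, adjusted p = 0.0601). SNHG3, SNHG5 and SNHG8 were not called after DSF in either line, with changes from -0.12 to 0.15. The 95% intervals of these 6 changes reached at most 0.38 upward and -0.43 downward.

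**Figure D1:**
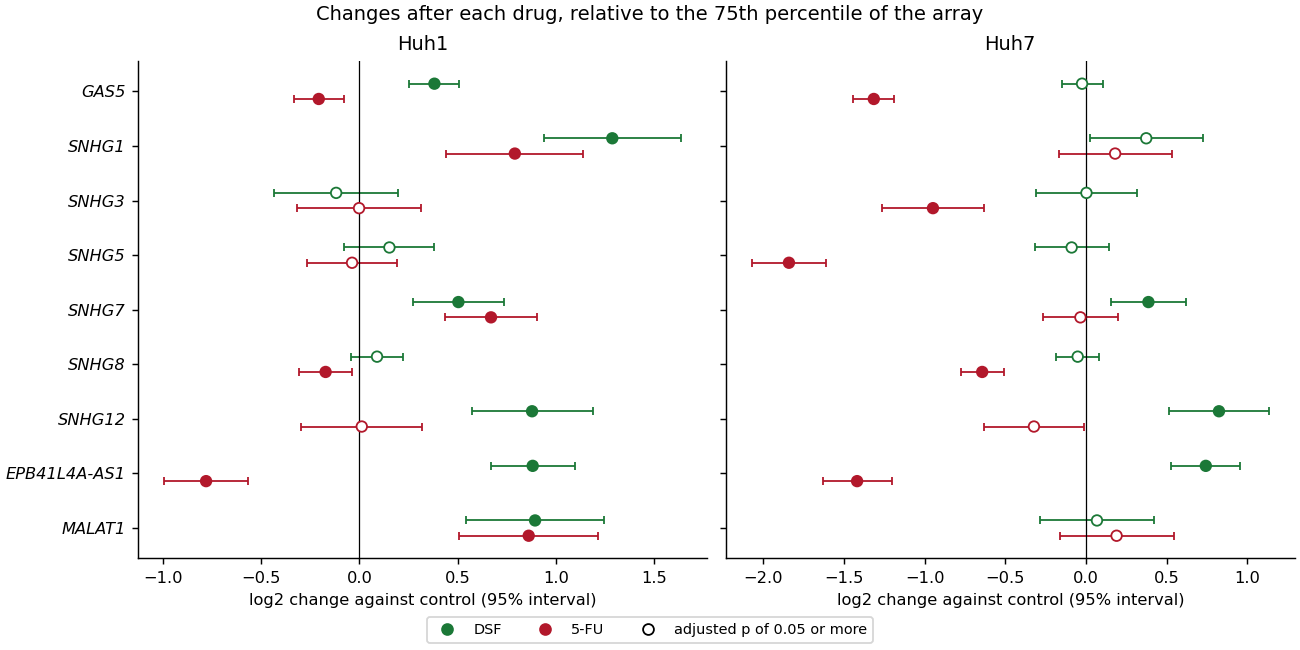
Log2 change of each gene after DSF (green) and 5-FU (red) against control, in Huh1 (left) and Huh7 (right). The 95% intervals use limma's SE with 12 residual degrees of freedom, and filled points passed an adjusted p of 0.05. DSF points lie at or to the right of 5-FU points for 8 of the 9 genes in Huh7, and the 5-FU points of SNHG5, EPB41L4A-AS1, GAS5 and SNHG3 in Huh7 reach from -0.95 to -1.84.

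After 5-FU in Huh7, 5 of the 9 genes were called lower and 0 higher, beside 29.7% of all tested probes called lower and 27.3% called higher. In Huh1, 3 were called lower and 3 higher, beside 26% and 22.2% of all probes. With spike-in scaling the split became 5 higher and 3 lower in Huh7, beside 76.8% and 3.46% of all tested probes, and 8 higher and 0 lower in Huh1, beside 74.7% and 1.23%. The median change of the 9 genes was -0.64 in Huh7 and 0.00 in Huh1, against -0.05 and -0.03 over all tested probes. With spike-in scaling these medians were 0.34 and 0.82, against 0.94 and 0.79. The 5-FU and control arrays did not overlap for 6 of the 9 genes in each line, beside 56.2% of all tested probes in Huh1 and 66.3% in Huh7. All control and 5-FU arrays of a line lay on the same slide.

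SNHG5, the host of SNORD50A and SNORD50B, fell most in Huh7. Its levels were 6.65, 6.62 and 6.66 in Huh7 control and 4.97, 4.91 and 4.52 after 5-FU. The change was -1.84 (SE 0.11, adjusted p = 4.38e-09), a 3.58-fold fall, and it was -0.85 (adjusted p = 0.000392) with spike-in scaling. In Huh1 the levels of 4.29, 4.18 and 4.24 in control and of 4.02, 4.31 and 4.25 after 5-FU overlapped, with a change of -0.04 (95% interval -0.27 to 0.19, and 0.79 with spike-in scaling). The control levels of the 2 lines lay more than 2 log2 units apart on every array, and the Huh7 5-FU arrays still lay above all Huh1 arrays. The fall in Huh7 exceeded that in Huh1 by 1.80 log2 units (-1.80, SE 0.15, adjusted p = 1.04e-06).

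GAS5 fell in both lines relative to the array. The Huh7 levels after 5-FU were 5.94, 5.80 and 5.77, more than 1 log2 unit below each control, and the change was -1.31 (SE 0.06, adjusted p = 4.56e-10, a 2.49-fold fall). The Huh1 levels after 5-FU were 6.30, 6.37 and 6.40, each below the lowest control, and the change was -0.21 (SE 0.06, adjusted p = 0.00925). With spike-in scaling GAS5 kept its direction in Huh7 (-0.33, adjusted p = 0.041) and turned in Huh1 (0.62), where quantile normalization also turned it (0.12). The effects in the 2 lines differed by -1.11 (SE 0.08, adjusted p = 4.25e-07).

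EPB41L4A-AS1 fell in both lines as well. In Huh1 the levels after 5-FU were 3.59, 3.78 and 3.74, below all controls, with a change of -0.78 (SE 0.10, adjusted p = 1.85e-05). In Huh7 they were 2.35, 2.63 and 2.16, the lowest of all 18 arrays, with a change of -1.42 (SE 0.10, adjusted p = 2.65e-08, a 2.67-fold fall). With spike-in scaling the change was -0.43 (adjusted p = 0.019) in Huh7 and 0.04 (adjusted p = 0.802) in Huh1. The difference between the lines was -0.64 (adjusted p = 0.00254). Over the 6 groups its mean level ran from 5.36 in Huh1 DSF to 2.38 in Huh7 5-FU, and the only neighbours in that order whose arrays overlapped were Huh7 DSF (4.54) and Huh1 control (4.48).

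SNHG8, the host of SNORA24, fell by 0.64 (SE 0.06, adjusted p = 5.84e-07) in Huh7, from 6.15, 6.14 and 6.15 to 5.60, 5.50 and 5.43. In Huh1 the change was -0.17 (adjusted p = 0.0309), a call that was lost when Huh1 control replicate 1, 5-FU replicate 1 or 5-FU replicate 3 was left out (-0.17 to -0.13). With spike-in scaling SNHG8 turned to 0.34 in Huh7 and to 0.65 in Huh1.

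In Huh1 the 3 genes called higher after 5-FU were SNHG1, SNHG7 and MALAT1, which had also risen there after DSF. Both changes subtract the same 3 Huh1 control arrays, so they are not independent. SNHG1 had levels of 4.58, 5.16 and 5.15 after 5-FU, all above its controls, and the change was 0.79 (SE 0.16, adjusted p = 0.000969). MALAT1 had levels of 0.27, 0.49 and 0.63, also above all controls, and the change was 0.86 (SE 0.16, adjusted p = 0.000543). The brighter SNHG7 probe changed by 0.67 (SE 0.11, adjusted p = 0.000146) and the dimmer one by 0.36 (adjusted p = 0.142). In Huh7 the changes of SNHG1 (0.18), MALAT1 (0.19) and SNHG7 (-0.03) did not pass the threshold. With spike-in scaling these 3 genes rose in both lines, by 1.5 to 1.69 in Huh1 and by 0.95 to 1.18 in Huh7. SNHG12 changed by 0.01 in Huh1 and by -0.32 (adjusted p = 0.0657) in Huh7, where its groups did not overlap; with spike-in scaling it turned to 0.66 in Huh7.

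The response to 5-FU in Huh7 minus that in Huh1 was called lower for 8 of the 9 genes and higher for 0, beside 17.8% of all tested probes called lower and 18.8% called higher. SNHG3 differed by -0.95 (adjusted p = 0.00237), SNHG7 by -0.71 (adjusted p = 0.0023) and SNHG8 by -0.47 (adjusted p = 0.000727). MALAT1 differed by -0.67 (adjusted p = 0.0331) and SNHG1 by -0.61 (adjusted p = 0.0485), and both calls depended on single arrays. That of MALAT1 was lost without Huh1 control replicate 2, Huh1 5-FU replicate 2 or 3, Huh7 control replicate 1 or 2, or Huh7 5-FU replicate 2 (-0.66 to -0.52). That of SNHG1 was lost without any single array other than Huh1 control replicate 1, Huh1 5-FU replicate 1 and Huh7 5-FU replicate 1 (-0.62 to -0.46). SNHG1 also lost it under median scaling (adjusted p = 0.0851), quantile normalization (0.0944), slide as a block (0.0655) and no filter on dim probes (0.0727). MALAT1 also lost its call under normexp background correction (adjusted p = 0.0750) and no filter on dim probes (0.0510). The count of called genes was 7 under median scaling and 6 with no such filter. For SNHG7 the dimmer probe gave -0.08 (adjusted p = 0.858), so its 2 probes disagree. With spike-in scaling 3 genes were called lower in Huh7, beside 7.57% of all tested probes, and the median of all tested probes was 0.14. The response to DSF differed for 3 of the 9 genes, SNHG1, MALAT1 and GAS5, all lower in Huh7, beside 19.2% of all probes called lower and 21.1% called higher.

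DSF and 5-FU were also compared directly. In Huh1, 5 of the 9 genes were higher with DSF and 0 lower, beside 28.7% and 20.6% of all tested probes. In Huh7, 7 were higher and 0 lower, beside 35.6% and 25% of all probes. EPB41L4A-AS1 differed most, by 1.66 (SE 0.10, adjusted p = 1.44e-08, 3.17-fold) in Huh1 and by 2.16 (SE 0.10, adjusted p = 5.85e-10, 4.47-fold) in Huh7. SNHG12 was higher with DSF by 0.87 and 1.15, and GAS5 by 0.59 and 1.29. These 4 calls were lost with spike-in scaling, where SNHG12 gave 0.18 and -0.01 and GAS5 -0.10 and 0.13. SNHG5 (1.75), SNHG3 (0.95), SNHG8 (0.59) and SNHG7 (0.42) were higher with DSF in Huh7. The SNHG7 call was lost with slide as a block (0.41, adjusted p = 0.0607) and without the slide of 2 Huh7 DSF arrays (adjusted p = 0.0629), and the dimmer probe was not called (0.29, adjusted p = 0.211). With spike-in scaling SNHG3 turned to -0.21 in Huh7, without a call. There SNHG8 (-0.57, adjusted p = 0.00233) and SNHG7 (-0.74, adjusted p = 0.00086) were called lower with DSF. MALAT1 did not pass the threshold in either line, with differences of 0.03 (95% interval -0.32 to 0.39) and -0.12 (95% interval -0.47 to 0.23); with spike-in scaling it was called lower with DSF in both (-0.66 and -1.28). With spike-in scaling 1 gene was higher and 5 were lower with DSF in Huh1, and 2 were higher and 4 lower in Huh7, beside 62.6% and 80.9% of all tested probes called lower. Under median scaling and under quantile normalization the Huh1 split was 3 higher and 1 lower.

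SNHG3 can be set beside its own snoRNAs, since the array carries probes listed under SNORA73A and SNORA73B, which are close copies of each other and may not be told apart by hybridization. These probes were looked at after other values were known. Whether they read the trimmed snoRNAs or host RNA that still holds the introns was not tested. SNHG3 fell in Huh7 after 5-FU from 5.39, 5.36 and 5.38 to 4.54, 4.37 and 4.37, a change of -0.95 (SE 0.14, adjusted p = 5.9e-05). In the same arrays SNORA73A went from 1.1, 1.00 and 1.06 to -0.66, 0.11 and 0.12, a change of -1.19 (SE 0.19, adjusted p = 6.95e-05). The brighter SNORA73B probe changed by -1.42 (adjusted p = 7.47e-07) and the dimmer one by -1.46 (adjusted p = 9.32e-06). In Huh1 none of the 4 probes was called after 5-FU, with changes of 0.00 for SNHG3, 0.23 for SNORA73A and 0.22 and 0.20 for SNORA73B. The Huh1 control levels of SNHG3 spread from 5.38 to 6.08. After DSF in Huh1 the brighter SNORA73B probe was lower by 0.41 (-0.41, adjusted p = 0.0278), while the dimmer one (-0.40, adjusted p = 0.0923), SNORA73A (-0.33, adjusted p = 0.169) and SNHG3 (-0.12, adjusted p = 0.544) were not called. With spike-in scaling the Huh7 change of SNHG3 after 5-FU was 0.04. Changes of the snoRNA probes under that scaling are not given here, so their falls are relative to the array.

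**Figure D2:**
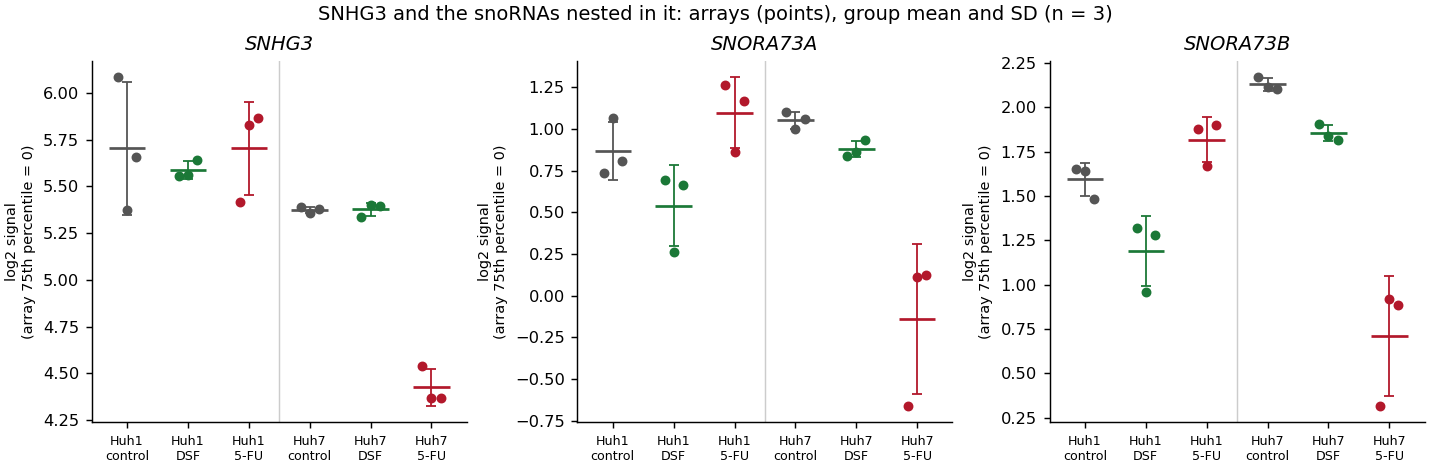
Log2 signal of SNHG3 and of the brighter probes of its nested snoRNAs SNORA73A and SNORA73B on the 18 arrays (points; vertical axis, log2 units relative to the 75th percentile of the array), with the mean and SD of each group of 3. For all 3 probes the Huh7 5-FU arrays are the lowest of the 6 groups, and the Huh1 5-FU arrays lie within or above the range of the Huh1 controls for the snoRNA probes.

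Over the 18 arrays, after the mean of each line was removed, the genes fell into patterns that are given as a description of 6 treated and control groups. GAS5, SNHG5, SNHG8 and SNHG3 had Pearson correlations of 0.81 to 0.97 with each other. SNHG1, SNHG7 and MALAT1 had correlations of 0.63 to 0.78 with each other and of -0.20 to 0.33 with the first 4. EPB41L4A-AS1 correlated at 0.90 with GAS5 and at 0.87 with SNHG12. Among 12720 genes above background on all arrays, the closest to GAS5 were EIF2A (0.99), RXRB (0.99) and EIF2B5 (0.98). The closest to SNHG5 were RNF141, SLC7A1 and RXRB (0.96 to 0.97), and those to SNHG8 were SP1, ELP3 and RXRB (0.97 to 0.98). KDM6B, MAFK and SH3RF1 were closest to SNHG1 (0.95 to 0.96), and PIM3, VDAC2 and BUD23 to SNHG12 (0.96 to 0.97). CCNH, IFT52 and TRIP11 were closest to EPB41L4A-AS1 (0.98), ZNF296, IQCB1 and ZNF524 to SNHG7 (0.91 to 0.97), ARIH1, ZNF18 and PAN2 to SNHG3 (0.91 to 0.93) and CAV3, INE1 and TBX19 to MALAT1 (0.89 to 0.90). These values share the treatment groups and the arrays.

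Other noncoding snoRNA hosts (19 listed, 11 tested) were called higher after DSF in 6 cases in Huh1 and 8 in Huh7, beside 23.9% and 27.3% of all tested probes, and 6 were higher in both lines; 1 was called lower in Huh1 and 0 in Huh7. With spike-in scaling 5 and 3 were called higher, beside 23.7% and 10.8% of all tested probes. SNHG20 rose by 0.51 and 1.26 and SNHG17 by 0.42 and 1.00 in Huh1 and Huh7. After 5-FU, 5 of the 11 rose and 3 fell in Huh1, beside 22.2% and 26% of all tested probes. In Huh7, 3 rose and 3 fell, beside 27.3% and 29.7%. The split of these hosts after 5-FU with spike-in scaling is not given here. SNHG20 (1.23 and 1.49) and SNHG9 (0.86 and 1.08) rose in both lines, while SNHG29 (-0.35 and -1.48) and SNHG6 (-0.47 and -0.64) fell relative to the array; with spike-in scaling SNHG29 was 0.47 in Huh1 and -0.49 in Huh7, and SNHG6 was 0.35 in both. The list's median change after 5-FU was 0.15 in Huh1 and -0.12 in Huh7.

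Protein-coding snoRNA hosts, among them many genes of ribosomal proteins and translation factors, fell widely after 5-FU relative to the array. Of the 30, 22 were called lower in Huh1 and 26 in Huh7, beside 26% and 29.7% of all tested probes called lower, and 22 were lower in both lines. In Huh1 2 were called higher, and in Huh7 1. Their median change was -0.44 in Huh1 and -0.63 in Huh7, against -0.03 and -0.05 over all tested probes. With spike-in scaling 20 and 15 of the 30 were called higher and 1 lower in each line, beside 74.7% and 76.8% of all tested probes called higher. These medians turned to 0.38 and 0.35, below the 0.79 and 0.94 of all tested probes. RPL3, a ribosomal protein gene, fell in both lines (-1.29 in Huh1 and -1.92 in Huh7), also with spike-in scaling (-0.47 and -0.93). EEF2, the translation elongation factor, fell as well (-0.56 and -1.27), and with spike-in scaling gave 0.27 and -0.28. After DSF, 3 of the 30 rose and 2 fell in Huh1, beside 23.9% and 20.3% of all tested probes. In Huh7, 10 rose and 3 fell, beside 27.3% and 19.4%. TAF1D (0.68 and 0.37) and HSPA9 (0.24 and 0.60) were higher in both (TAF1D in Huh7 was 0.20, adjusted p = 0.331, with spike-in scaling). With median scaling 2 of the 30 rose and 13 fell in Huh1, beside 15.9% and 32.2% of all tested probes.

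Of 18 snoRNP proteins and assembly factors, 8 were called lower and 1 higher in Huh1 after 5-FU, and 10 lower and 3 higher in Huh7, beside 26% and 29.7% of all tested probes called lower. With spike-in scaling 16 were called higher and 0 lower in each line, beside 74.7% and 76.8% of all tested probes called higher. PIH1D1, of the R2TP assembly complex, (-0.77 and -0.90), and NHP2, a core protein of H/ACA particles (-0.39 and -0.84), fell in both lines, while ZNHIT6, a C/D assembly factor, rose by 0.39 and 0.57; with spike-in scaling PIH1D1 was 0.06 and 0.08 and NHP2 0.44 and 0.15. After DSF, 5 of the 18 rose and 4 fell in Huh1, beside 23.9% and 20.3% of all tested probes. In Huh7, 8 rose and 1 fell, beside 27.3% and 19.4%. ZNHIT6 (0.45 and 0.52) and GAR1 (0.25 and 0.55), another H/ACA core protein, rose in both lines, and with spike-in scaling neither was called in Huh7, nor GAR1 in Huh1.

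Of 18 nonsense-mediated decay factors, DSF raised 8 in Huh1 and lowered 2, and it raised 13 in Huh7 and lowered 1, beside 23.9% and 27.3% of all tested probes called higher, and 7 were higher in both. With spike-in scaling 8 were called higher in Huh1 and 0 in Huh7, beside 23.7% and 10.8% of all tested probes. The Huh7 count under that scaling carries the slide difference given above. With median scaling 3 rose and 3 fell in Huh1, beside 15.9% and 32.2% of all tested probes. RBM8A, of the exon junction complex, rose by 0.47 and 0.53 and SMG5 by 0.28 and 0.52, while PNRC2 fell (-0.30 and -0.34, called in neither line with spike-in scaling). After 5-FU, UPF3B (0.81 and 1.1) and SMG5 (0.54 and 1.19) rose and MAGOHB (-0.92 and -0.57) fell, with MAGOHB at 0.41 in Huh7 under spike-in scaling. Of 23 exosome and decay genes, 6 rose and 8 fell after 5-FU in Huh1, beside 22.2% and 26% of all tested probes. In Huh7, 7 rose and 11 fell, beside 27.3% and 29.7%. With spike-in scaling 19 and 16 rose and 0 fell, beside 74.7% and 76.8% of all tested probes called higher. TENT4B, a poly(A) polymerase that tags nuclear RNA for decay, rose by 1.13 and 1.80, and EXOSC4 by 0.62 and 1.12. ZFC3H1, which links nuclear poly(A) RNA to the exosome, fell (-1.0 and -1.37), as did EXOSC8 (-0.58 and -0.83); EXOSC8 was 0.25 and 0.16 with spike-in scaling. After DSF, EXOSC6 (0.25 and 0.65) and EXOSC1 (0.47 and 0.33) rose, with EXOSC1 at 0.16 (adjusted p = 0.474) in Huh7 under spike-in scaling.

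Genes around the nuclear RNAs were read in the same way. Of 16 paraspeckle proteins, 0 rose and 8 fell after 5-FU in Huh1, and 5 rose and 5 fell in Huh7, with HNRNPA1 (-1.01 and -1.45) and HNRNPH3 (-0.68 and -0.73) lower in both. With spike-in scaling 12 and 14 of these proteins were called higher and 0 and 1 lower, beside 74.7% and 76.8% of all tested probes called higher. Under that scaling HNRNPA1 was -0.19 and -0.47, and HNRNPH3 turned to 0.14 and 0.26. Of 16 nuclear speckle and MALAT1 processing genes, 3 rose and 8 fell in Huh1 and 2 rose and 5 fell in Huh7. Beside the counts of both lists, 22.2% of all tested probes were called higher after 5-FU and 26% lower in Huh1. In Huh7 these shares were 27.3% and 29.7%. SRSF1, a splicing factor that MALAT1 binds, fell (-1.17 and -0.94), as did SRSF3 (-0.75 and -0.71). RPP30 and RPP14, protein subunits of the RNase P that processes MALAT1, rose by 0.52 and 1.63 and by 0.25 and 0.51. With spike-in scaling SRSF1 was -0.34 and 0.04 and SRSF3 turned to 0.07 and 0.27. No gene of the speckle list was then called lower after 5-FU in either line, beside 1.23% and 3.46% of all tested probes. After DSF, SON, a scaffold of speckles, rose by 0.37 and 0.60, RPP40 by 0.40 and 0.82, and NUDT21, a paraspeckle protein, by 0.64 and 0.38. With spike-in scaling the calls of SON in both lines and of NUDT21 in Huh7 were lost.

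The genes next to the hosts on the chromosome gave mixed values. SLC3A2, an amino acid transporter subunit beside SNHG1, rose after DSF by 1.36 in Huh1 and 0.83 in Huh7 and after 5-FU by 0.96 and 0.38, while SNHG1 changed by 1.29, 0.37, 0.79 and 0.18 in the same order. WDR74, on the other side of SNHG1, rose after DSF by 0.75 and 0.60. FRMD8, near NEAT1 and MALAT1, rose after 5-FU by 0.75 and 1.55. Of the 9 neighbours tested, DSF raised 3 and lowered 1 in Huh1, and raised 7 and lowered 1 in Huh7, beside 23.9% and 27.3% of all tested probes called higher. After 5-FU, 2 rose and 2 fell in Huh1, beside 22.2% and 26% of all tested probes. In Huh7, 4 rose and 1 fell, beside 27.3% and 29.7%. With spike-in scaling 8 and 9 rose, beside 74.7% and 76.8% of all tested probes.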

How the data were processed

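The authors deposited 1 scanner file per array of a one-color Agilent human array (Feature Extraction 10.7.1.1 per the file headers; the methods give another version). Its processed signal is an intensity after background subtraction, with no scaling across arrays. The authors' second file, made in GeneSpring, holds each signal as a ratio to the 75th percentile of its array and matched the scanner values within 0.05 log2 for 100% of probes.

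Log2 intensity was averaged over unflagged spots of a probe (316 to 447 flagged per array), and each array's 75th percentile was subtracted. Probes were named through RefSeq accessions (25771 of 27134 matched) from a table of GRCh38.p14; the array design uses another build, so no probe coordinates are given. A gene is read on its brightest probe. All 18 arrays entered 1 limma fit (R 4.3.3, limma 3.58.1) with 6 groups, checked on simulated data; calls used adjusted p under 0.05 over 29894 probes. The tables and plots were made in Python (3.11.15; numpy 2.4.6, pandas 2.3.3, matplotlib 3.10.9). Precision is limited by 3 arrays per group.

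The members and gene lists were chosen with earlier results of these data known. Genes named are all members with their probes, of each list the 2 with the largest rise and the 2 with the largest fall per drug among those called alike in both lines, the fixed neighbours, and per gene the 3 most correlated. The median probe signal replaced the mean in normexp because the files hold no mean. Alternatives were median, quantile and spike-in scaling, normexp (offset 50), the authors' table, 2 filters, slide and replicate blocks, lines fitted alone, an intensity trend, the mean of all probes and leaving out each array. Leaving out slide 3 and describing SNORA73A and SNORA73B were chosen after seeing the data. One marker of another cell type is not reported here.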

Additional observations from a re-analysis of the deposited data

Results flagged for a closer look

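The effect of a drug differed between the lines for the genes below, by the test of the difference itself (effect in Huh7 minus effect in Huh1, limma, adjusted over all tested probes). After 5-FU the difference was -1.80 for SNHG5, -1.11 for GAS5, -0.95 for SNHG3, -0.71 for SNHG7, -0.67 for MALAT1, -0.64 for EPB41L4A-AS1, -0.61 for SNHG1 and -0.47 for SNHG8. After DSF it was -0.92 for SNHG1, -0.83 for MALAT1 and -0.41 for GAS5. The differences of the 2 drugs share the control arrays of each line. With spike-in scaling the 5-FU differences of SNHG1, SNHG7, SNHG8, MALAT1 and EPB41L4A-AS1 no longer passed the threshold. Those of SNHG1 and MALAT1 also failed under further settings given above. Huh1 control and 5-FU arrays lay on 1 slide and those of Huh7 on another.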

How the results depend on the processing

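With spike-in scaling, 8 genes were called after 5-FU in Huh7 and 3 differed between the lines after 5-FU. Values that turned with spike-in scaling were, for 5-FU in Huh1, GAS5 0.62, SNHG3 0.82, SNHG5 0.79, SNHG8 0.65 and EPB41L4A-AS1 0.044; for 5-FU in Huh7, SNHG3 0.038, SNHG7 0.95, SNHG8 0.34 and SNHG12 0.66; for DSF against 5-FU in Huh1, GAS5 -0.10, SNHG1 -0.20, SNHG5 -0.50, SNHG8 -0.43 and MALAT1 -0.66; and in Huh7, SNHG1 -0.97, SNHG3 -0.21, SNHG7 -0.74, SNHG8 -0.57 and SNHG12 -0.014. Quantile normalization turned GAS5 (0.12) and SNHG8 (0.11) for 5-FU in Huh1. The cause was not tested. Leaving out 1 array at a time gave 6 called genes throughout for DSF in Huh1, 3 to 4 for DSF in Huh7, 5 to 6 for 5-FU in each line, 3 for the DSF difference and 6 to 9 for the 5-FU difference. Of the values of single genes in these runs, 26 lost their call and 6 gained one, none turning. Without Huh1 5-FU replicate 1 or DSF replicate 3, SNHG1 was no longer called between the drugs in Huh1 (0.30 and 0.47). Same-numbered arrays of a line did not deviate together (18 pairs, r from -0.09 to 0.02), and the main fit did not pair them. Whether equal numbers mark the same experiment is not given, and this check cannot decide it. The replicate block left 6 genes for the 5-FU difference, without SNHG1 and MALAT1 (adjusted p = 0.0717 and 0.0511), and changed no other count. Small changes are not resolved with 3 arrays per group.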

Other observations

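The list of pseudouridine synthases holds 12 enzymes outside the H/ACA particles and DKC1, the catalytic protein of those particles. After DSF in Huh1, 0 of 13 rose and 6 fell, beside 23.9% and 20.3% of all tested probes, with a median change of -0.32. In Huh7, 7 rose and 1 fell, beside 27.3% and 19.4%, with a median of 0.35. The difference between the lines was called higher in Huh7 for 12 of 13, beside 21.1% of all tested probes. It was called higher for 12 with median scaling, 10 with quantile normalization and 3 with spike-in scaling. The shares of all tested probes were 29.7%, 22.4% and 4.79% in that order. Of the 3 Huh7 DSF arrays, 2 lay alone on a slide that was scanned apart. Values of this list without that slide are not given here. RPUSD3 fell in both lines (-0.51 and -0.25). After 5-FU, RPUSD4 (-1.12 and -1.29) and RPUSD3 (-0.64 and -0.77) fell and RPUSD1 (0.56 and 1.00) and PUSL1 (0.22 and 0.63) rose relative to the array; with spike-in scaling RPUSD4 was -0.30 in both lines and RPUSD3 was 0.18 and 0.21.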
